A study of Mus musculus with 2 samples.

Results

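The genes that build cholesterol and fatty acids were examined as a set of 32, chosen by name from the 34745 genes of the deposited expression table. No threshold on their values was used, but earlier results of these data were known when the set was chosen. They comprised 18 enzymes of sterol synthesis, 5 genes that regulate the pathway or carry sterol within the cell, and 9 enzymes that make or desaturate fatty acids. The list does not hold every enzyme of these pathways. The cells were monocytic myeloid-derived suppressor cells (M-MDSCs), grown for 7 days from bone marrow of C57BL/6 mice, which the methods give as 6 to 8 weeks old, and sorted as CD11b+Ly6G-Ly6C high cells. CHBP- M-MDSCs received GM-CSF at 50 ng/ml, a growth factor that drives myeloid differentiation, and CHBP+ M-MDSCs received the same GM-CSF together with cyclic helix B peptide (CHBP), a peptide derived from erythropoietin. The labels give no CHBP dose, other sources disagree on its unit, and the strain of the CHBP+ library is labelled C57BL/7. One RNA library was sequenced per condition, so there was no replicate spread. Nothing in the sources says whether they came from separate or pooled animals, and CHBP cannot be told apart from any other difference between the 2 libraries.

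Cholesterol is assembled from acetyl-CoA through mevalonate, isoprenoid diphosphates, squalene and lanosterol. The mRNAs of most enzymes on this route are driven by sterol regulatory element-binding proteins (SREBPs), which are held in the endoplasmic reticulum by INSIG proteins when sterol is plentiful and are carried by SCAP to the Golgi for cleavage when it is scarce. SREBP-2, from Srebf2, acts mainly on sterol genes and SREBP-1, from Srebf1, mainly on fatty acid genes, where the nuclear receptor LXR also acts. In monocytes and macrophages both pathways supply membrane for growth and are tuned during activation, and the sterol pathway also supplies prenyl groups for signalling proteins.

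The libraries held 16484504 counted reads in CHBP- M-MDSCs and 16280466 in CHBP+ M-MDSCs. Among myeloid and sorting markers, Ly6c2 had 4091 and 2411 reads, Ly6g, which the sort should exclude, had 46 and 44, and Lyz2 had 203606 and 161382. Itgam, which encodes CD11b, had 18653 and 27265 reads (8703 and 13147 in a second, overlapping entry), so the defining myeloid markers were present, and of the 12 entries of this list 5 were higher and 5 lower by the read test described below. The summed FPKM (reads scaled for gene length and library total) of 7 erythroid markers was 1305 in CHBP- and 602 in CHBP+ M-MDSCs, with 6 of the 7 lower by that test. Hbb-bs alone made up 708 and 212 FPKM of these sums. For 8 granulocyte precursor markers the sums were 1983 and 1417, with 5 of the 8 lower. With the length trend described below removed, the median log2 ratio went from -0.61 to -0.39 for the erythroid markers. For the granulocyte precursor markers it went from -0.40 to -0.26, with 3 of the 8 then above 0. The summed FPKM was 475 and 504 for 8 macrophage markers, 232 and 240 for 7 dendritic cell markers, 297 and 244 for 6 mast cell and basophil markers, and 37.3 and 23.7 for 7 lymphoid markers, with no read for Xcr1 of conventional dendritic cells or Ncr1 of natural killer cells. By the read test 2 macrophage markers were higher and none lower, and 2 of the 6 dendritic cell markers tested were higher and 2 lower. Of the mast cell and basophil markers 1 was higher (Ms4a2, 182 and 446 reads) and 4 were lower. Of the 6 lymphoid markers tested none was higher and 3 were lower. These were Cd79a (444 and 248 reads), Cd79b (479 and 311) and Ms4a1 (449 and 352). The part of these other cells in the values below was not tested. In bulk RNA, fewer cells of a type and less mRNA per cell cannot be told apart.

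The clearest difference in the set was a lower level of Idi1, the isomerase that makes the allylic isoprenoid unit, whose share of the reads in CHBP+ M-MDSCs was 0.325 of that in CHBP- M-MDSCs, while the other 31 genes were each less than 1.5-fold apart. The fatty acid enzymes Scd2, Scd1, Acly, Fasn, Acaca and Elovl6 were slightly higher in CHBP+ M-MDSCs, and the SREBP genes themselves were nearly level. The other sterol enzymes moved both ways. Fdps, Pmvk, Ebp, Nsdhl, Mvk and Fdft1 were slightly lower, and Msmo1, Hmgcs1, Hsd17b7 and Lss slightly higher. Differences are given as log2 of (FPKM + 1) in CHBP+ over that in CHBP- M-MDSCs, which understates the change of low genes. All 32 genes reached 1 FPKM in at least 1 library, as did 10948 genes of the table. The fold threshold of the study, 1.5, was passed by no member upwards and by Idi1 downwards, against 3.42% of all genes kept upwards and 2.89% downwards, so the number of members past the threshold was near the background. The median log2 ratio was 0.003 over the 32 members and -0.03 over all genes kept.

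A smaller difference could still exceed the counting error of the reads. Each gene was therefore given an exact two-sided binomial test of its reads against the library totals, with Benjamini-Hochberg adjustment over 14162 genes (the read test), which compares these 2 libraries and not the conditions. By this test 10 members were higher (31.2% of the set, against 21.9% of all genes tested) and 7 were lower (21.9% of the set, against 22.2%). The members had between 141 and 13971 reads in a library, whereas the genes tested needed only 10 reads over both libraries. The test calls small differences more readily at high counts, so these shares, here and below, are compared at unlike depth. The exact Clopper-Pearson 95% interval of the CPM ratio (reads scaled to library total only) lay within 1.5-fold of no difference for 26 of the 32. These intervals and tests cover counting error only, since sequenced reads are not independent molecules and no library was repeated.

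**Figure D1:**
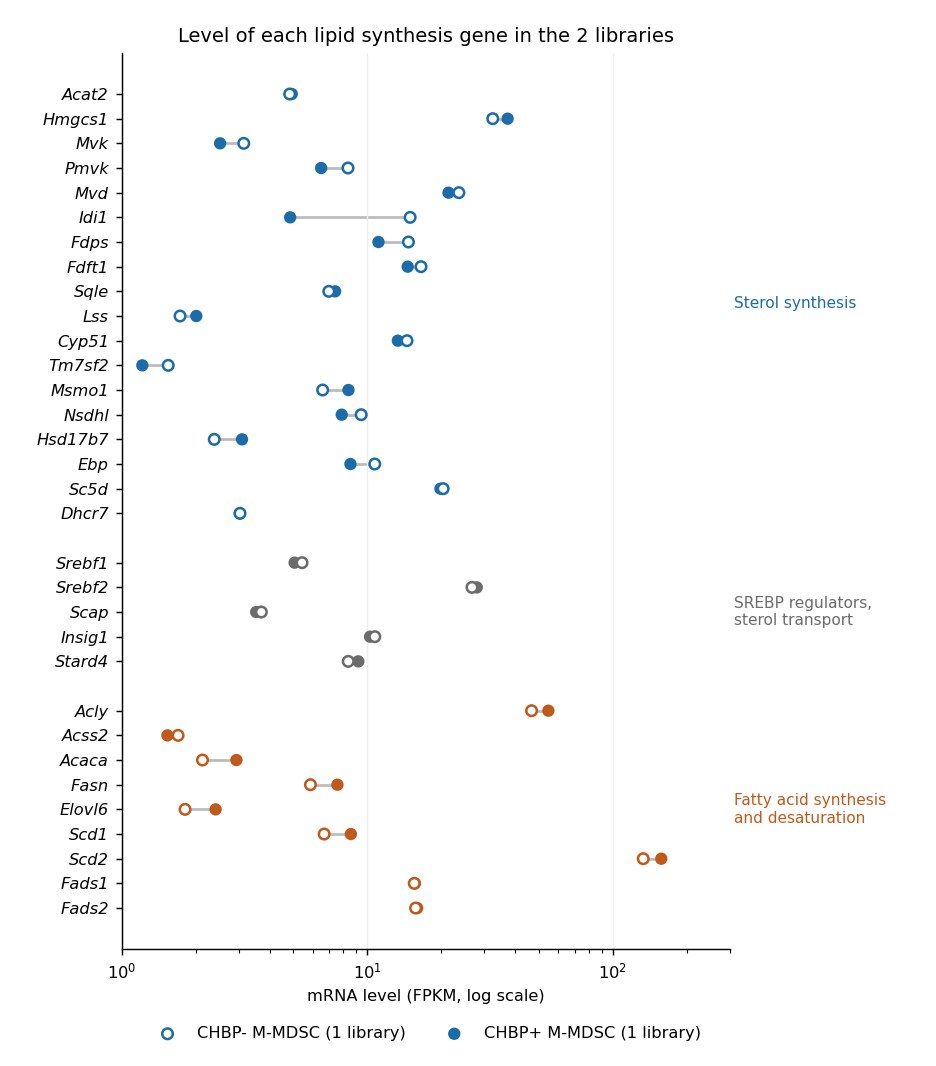
Level of each of the 32 genes in FPKM (horizontal log axis) in the CHBP- library (open circles) and the CHBP+ library (filled circles), with 1 library per condition and the genes in the order of their pathway. Scd2 stood highest at 133 and 157 FPKM and Tm7sf2 lowest at 1.55 and 1.21, and Idi1 shows the widest gap.

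Sterol synthesis opens with the condensation of acetyl-CoA units. Acat2, the cytosolic thiolase of the first step, had 279 reads in CHBP- and 281 in CHBP+ M-MDSCs, or 4.83 and 4.93 FPKM. Hmgcs1, the synthase that makes HMG-CoA, had 1728 and 1962 reads, or 32.4 and 37.3 FPKM. The Hmgcs1 log2 ratio was 0.20 (read test, Benjamini-Hochberg adjusted p = 0.000104), and it was the most abundant of the 18 sterol enzymes in both libraries.

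The next 3 enzymes turn mevalonate into isopentenyl diphosphate, and 2 of them, Mvk and Pmvk, were lower in CHBP+ M-MDSCs. Mvk, mevalonate kinase, had 244 and 193 reads, or 3.14 and 2.52 FPKM, in CHBP- and CHBP+ M-MDSCs. Pmvk, which adds the second phosphate, had 431 and 331 reads, or 8.35 and 6.49 FPKM, with a log2 ratio of -0.32. Mvd, the decarboxylase, had 685 and 614 reads, or 23.6 and 21.4 FPKM. Of these, Pmvk (Benjamini-Hochberg adjusted p = 0.00192) and Mvk (adjusted p = 0.0492) passed the read test and Mvd (adjusted p = 0.157) did not. The log2 ratio of Mvd was -0.13, and 0.05 with the length trend described below removed. Mvk did not pass once the totals were scaled by trimmed mean of M values (adjusted p = 0.0612).

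Idi1 (ENSMUSG00000058258, chromosome 13 from 8885501 to 8892451 on GRCm38) interconverts isopentenyl and dimethylallyl diphosphate. It had 1182 reads in CHBP- M-MDSCs and 379 in CHBP+ M-MDSCs, or 14.9 and 4.85 FPKM. In CHBP- M-MDSCs it thus stood level with Fdps, the next enzyme (14.7 FPKM), and in CHBP+ M-MDSCs well below it (11.1 FPKM). Its log2 ratio was -1.45, and the ratio of CPM was 0.325 with a 95% interval from 0.288 to 0.365 (read test, Benjamini-Hochberg adjusted p = 4.01e-92). Of the 10948 genes kept, 18 had a log2 ratio as low as that of Idi1 or lower, Idi1 included. No other listed gene overlaps the Idi1 span. Of its neighbours, Wdr37 at 13592 bases from Idi1 had 752 and 868 reads (log2 ratio 0.17). Gtpbp4 at 79620 bases had 2969 and 2844 reads (log2 ratio -0.04). The paralog Idi2, 60412 bases away, had 1 read in CHBP- M-MDSCs and none in CHBP+ M-MDSCs, fewer than the 3 reads taken as the floor. After removal of the trend with gene length described below, the log2 ratio of Idi1 was -1.42. The erythroid and granulocyte precursor markers were lower in the same library, as given above, and their part in the Idi1 difference was not tested.

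Beyond Idi1 the carbon units are joined into longer isoprenoids. Fdps, farnesyl diphosphate synthase, had 1380 reads in the CHBP- and 1029 in the CHBP+ library, a log2 ratio of -0.38 (read test, Benjamini-Hochberg adjusted p = 5.93e-11). Fdps was the next lowest member after Idi1, with its CPM ratio interval from -0.52 to -0.29 on the log2 scale. Gm43738 lies over 7512 bases of the Fdps span and had 51 and 48 reads. Fdft1, squalene synthase, which commits farnesyl diphosphate to sterol, had 780 and 680 reads, or 16.5 and 14.6 FPKM (log2 ratio -0.17). Its span overlaps that of Ctsb by 767 bases, and Ctsb had 31002 and 30193 reads. Whether counting used strand is not given in the sources used here, so reads from the shared stretch cannot be told apart. The Fdft1 difference passed the read test with the totals as deposited (Benjamini-Hochberg adjusted p = 0.0429) and did not with scaled totals (adjusted p = 0.0649).

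From squalene to cholesterol the enzymes moved in both directions. Sqle, the squalene epoxidase, had 983 reads in CHBP- and 1030 in CHBP+ M-MDSCs, or 6.97 and 7.40 FPKM. Lss, which closes the rings to lanosterol, had 526 and 605 reads, or 1.73 and 2.01 FPKM (log2 ratio 0.14). Cyp51, the lanosterol demethylase, had 1294 and 1173 reads, or 14.5 and 13.3 FPKM (log2 ratio -0.12). Neither Sqle nor Cyp51 passed the read test. Cyp51 shares 166 bases with Akap9, whose reads were 1053 and 1953, and the log2 CPM ratio of both genes summed was 0.43, the opposite sign. That sum takes in all reads of Akap9 and not only those of the shared stretch, so it cannot decide the sign of Cyp51. The sign for Lss, with an implied length of 18461 bases as described below, was not stable, at -0.13 with the length trend removed.

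Msmo1, which removes the methyl groups at carbon 4, had 1070 and 1346 reads, or 6.58 and 8.38 FPKM. With a log2 ratio of 0.31 (read test, Benjamini-Hochberg adjusted p = 2.29e-08) it had the highest log2 ratio of FPKM + 1 among the sterol enzymes. Hsd17b7, a keto-reductase of the same demethylation, was also higher, with 217 and 278 reads, or 2.38 and 3.09 FPKM (log2 ratio 0.27). On CPM, Hsd17b7 (log2 ratio 0.38) stood above Msmo1 (0.35), and with the length trend removed Hmgcs1 (0.29) and Hsd17b7 (0.28) stood above Msmo1 (0.19). Nsdhl, the decarboxylating dehydrogenase that works between these enzymes, was lower, with 469 and 386 reads, or 9.44 and 7.87 FPKM (log2 ratio -0.24). All 3 passed the read test.

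Tm7sf2, a sterol C14 reductase, was the least abundant member, with 182 and 141 reads, or 1.55 and 1.21 FPKM. Ebp, the sterol isomerase, had 631 and 496 reads, or 10.7 and 8.54 FPKM (log2 ratio -0.30, read test with Benjamini-Hochberg adjusted p = 0.00051). Sc5d, the C5 desaturase, had 1139 and 1097 reads, or 20.4 and 19.9 FPKM. Dhcr7, which yields cholesterol in the last step of one branch, had 364 and 359 reads and 3.03 FPKM in both libraries. Of these, only Ebp passed the read test. Tm7sf2 shares 532 bases with Vps51, which had 459 and 413 reads. Across the 18 sterol enzymes, 4 were higher (22.2%, against 21.9% of all genes tested) and 7 were lower (38.9%, against 22.2%) by the read test, and the median log2 ratio was -0.12. Their summed level was 196 FPKM in CHBP- and 178 in CHBP+ M-MDSCs, and without Idi1 the sums were 181 and 173 FPKM.

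The regulators of the pathway differed least. Srebf2, which encodes SREBP-2, had 2194 reads in CHBP- and 2267 in CHBP+ M-MDSCs, or 26.7 and 27.9 FPKM. Srebf1 had 823 and 758 reads, or 5.42 and 5.06 FPKM. By FPKM, Srebf2 stood at 4.92 times Srebf1 in CHBP- and at 5.52 times in CHBP+ M-MDSCs. These ratios rest on the lengths implied by count and FPKM (9203 bases for Srebf1 and 4989 for Srebf2) and exceed those of the reads. The counts do not separate the isoforms of Srebf1. Srebf1 shares 109 bases with Rai1, which had 404 and 431 reads. Scap, the SREBP escort, had 544 and 512 reads, or 3.70 and 3.53 FPKM. Insig1, which retains SCAP and is itself an SREBP target, had 611 and 577 reads, or 10.7 and 10.3 FPKM. Stard4, a carrier of cholesterol between membranes, had 936 and 1016 reads, or 8.36 and 9.19 FPKM. None of the 5 passed the read test, by which 44.1% of all genes tested were called, and their log2 ratios ran from -0.08 to 0.12. The interval of the log2 CPM ratio was -0.23 to 0.10 for Insig1 and -0.02 to 0.15 for Srebf2, which excludes a 1.5-fold difference between these libraries by counting but carries no replicate error.

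Among fatty acid genes, Scd2 led the set. Scd2 (ENSMUSG00000025203, chromosome 19 from 44293676 to 44306864) encodes a stearoyl-CoA desaturase, which puts the first double bond into saturated fatty acids. It had 11946 reads in CHBP- M-MDSCs and 13971 in CHBP+ M-MDSCs, or 133 and 157 FPKM, a log2 ratio of 0.24 with an interval of the log2 CPM ratio from 0.21 to 0.28. Its paralog Scd1 had 532 and 675 reads, or 6.67 and 8.57 FPKM, a log2 ratio of 0.32 with an interval of the log2 CPM ratio from 0.20 to 0.53. By FPKM, Scd2 stood at 19.9 times Scd1 in CHBP- and at 18.4 times in CHBP+ M-MDSCs. Reads shared between these similar genes could shift the low Scd1 count, since how reads mapping to several places were counted is not given in the sources used here. Scd3 and Scd4, the other paralogs of the cluster, had at most 2 and 11 reads.

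Acly, which splits citrate into cytosolic acetyl-CoA, had 6298 reads in CHBP- and 7281 in CHBP+ M-MDSCs, or 46.6 and 54.6 FPKM (log2 ratio 0.22). Acss2, which makes acetyl-CoA from acetate instead, had 358 and 320 reads, or 1.70 and 1.54 FPKM. Gss lies over 22544 bases of the Acss2 span, with 525 and 518 reads, so the Acss2 count is uncertain. The citrate route therefore had the higher mRNA of these acetyl-CoA sources in both libraries. Acaca, acetyl-CoA carboxylase, had 713 and 968 reads, or 2.13 and 2.93 FPKM (log2 ratio 0.33). Fasn, fatty acid synthase, had 1347 and 1713 reads, or 5.87 and 7.56 FPKM (log2 ratio 0.32). Elovl6, which extends palmitate, had 330 and 434 reads, or 1.81 and 2.41 FPKM (log2 ratio 0.28). For the desaturases of polyunsaturated fatty acids, 885 and 879 reads were counted on Fads1 and 391 and 392 on Fads2. Their log2 ratios were 0.01 and 0.02, and 0.09 and 0.22 with the length trend removed.

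By the read test 6 of the 9 fatty acid genes were higher (66.7%, against 21.9% of all genes tested), none was lower (against 22.2%) and 3 (Acss2, Fads1 and Fads2) passed in neither direction. The largest of the 6 Benjamini-Hochberg adjusted p-values was 0.000352, for Elovl6, and the smallest was 1.45e-40, for Scd2. The median log2 ratio of the 9 genes was 0.24, against -0.12 for the sterol enzymes and -0.03 for all genes kept. The shares of all genes tested include genes with far fewer reads, as given above. This contrast between the arms was not tested, since each arm has 1 value per condition.

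**Figure D2:**
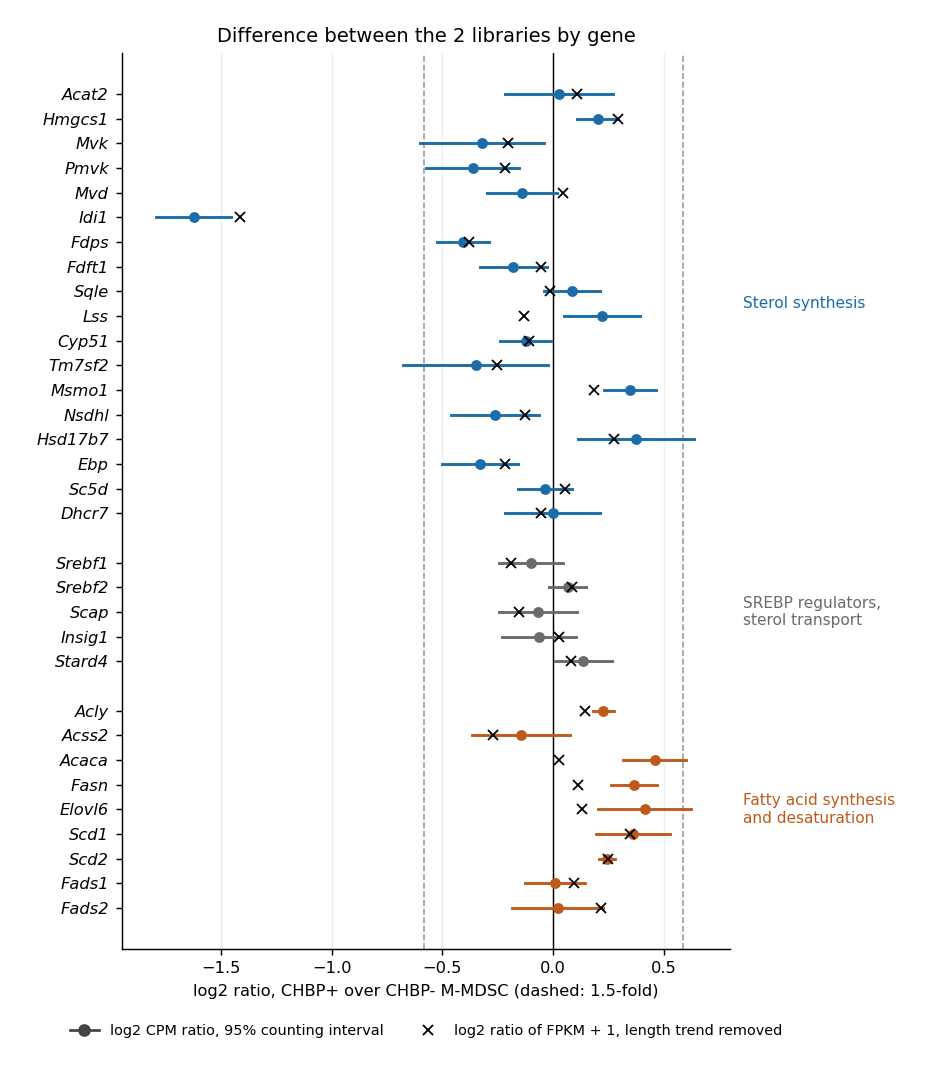
The log2 CPM ratio of CHBP+ over CHBP- M-MDSCs for each member (circles) with its exact 95% counting interval (bars) and the 1.5-fold limits (dashed lines). Crosses give the log2 ratio of FPKM + 1 after removal of the trend with implied gene length. Only the crosses hold a pseudocount, so their distance from the circles reflects that as well as length. The circle of Idi1 lies at -1.62, outside the limits. The crosses of Acaca (0.03), Fasn (0.11), Elovl6 (0.13), Acly (0.14), Lss (-0.13) and Msmo1 (0.19) sit to the left of their bars. Those of Mvd (0.05) and Idi1 (-1.42) sit to the right, and those of Scd1 (0.35) and Scd2 (0.25) within.

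The length implied by count and FPKM moved with these differences. It is the divisor of the FPKM and not a measured length of gene or mRNA. For Tm7sf2 it was 7137 bases, more than the deposited span (chromosome 19 from 6062821 to 6068373). Lengths, long and short refer here to this implied length. Over the 10948 genes kept, implied length and log2 ratio had a Spearman's rho of 0.48, and over the 32 members of 0.46. This is a description across genes that share both libraries. The median length was 8190 bases for the 9 fatty acid genes, 4755 for the 18 sterol enzymes and 4935 for all genes kept. With a cubic trend on log length removed, the median log2 ratio was 0.13 for the fatty acid genes and -0.08 for the sterol enzymes. Long genes moved down, from 0.33 to 0.03 for Acaca (20271 bases), from 0.14 to -0.13 for Lss (18461 bases), from 0.32 to 0.11 for Fasn (13922 bases) and from 0.28 to 0.13 for Elovl6 (11053 bases), and short genes moved up, from 0.02 to 0.22 for Fads2 (1508 bases) and from -0.13 to 0.05 for Mvd (1761 bases). Acly (8190 bases) went from 0.22 to 0.14. Scd1 (4836 bases) and Scd2 (5453 bases), of near average length, stayed at 0.35 and 0.25, and Hmgcs1 (3233 bases) went from 0.20 to 0.29. After removal, 8 of the 9 fatty acid genes were above 0, as before it. Of the 18 sterol enzymes 4 changed sign, with Mvd and Sc5d moving above 0 and Sqle and Lss below it, and of the regulators Insig1 moved above 0.

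**Figure D3:**
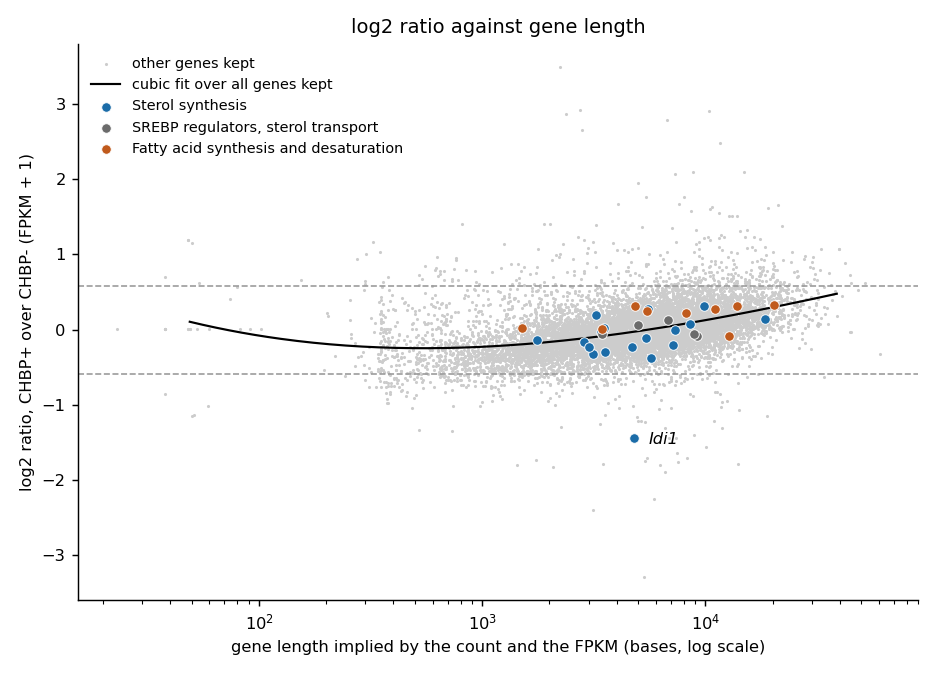
The log2 ratio of FPKM + 1 (vertical axis) against the length in bases implied by count and FPKM (horizontal log axis). Shown are the 10948 genes kept (grey), the cubic trend fitted over them (line), the 32 members (coloured by role) and the 1.5-fold limits (dashed). Members other than Idi1 lie between -0.38 and 0.33, within the cloud of other genes, and genes of longer implied length sit higher.

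The start sites of the members were then set beside these values, because SREBPs act on promoters together with the CCAAT-binding factor NF-Y. RefSeq start sites on GRCm38.p6 were given for 25 of the 32 genes, and the 250 bases before each were searched on both strands. The box CCAAT was found for 14 of 15 sterol enzymes, 3 of 4 regulators and 2 of 6 fatty acid genes, against 40.8% of the 8098 kept genes with a start site and 37.5% of all 27025 genes. The GC box GGGCGG was found for 21 of the 25 members (84%), against 64% of kept genes. The letters TCACNCCAC, like a sterol regulatory element, were found in Hmgcs1 and no other member, against 1.21% of kept genes. No match of one motif overlapped that of another. These matches are descriptions of sequence and not measured binding sites.

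The windows of 5 genes are printed 5′ to 3′ on the strand of the gene, with CCAAT or its complement ATTGG and the TCACNCCAC match in capitals. They show the 1 gene past the fold threshold (Idi1, chr13:8885356-8885605, plus strand), the enzyme before it in the pathway (Mvd, chr8:122443423-122443672, minus strand), the sterol enzyme with the highest log2 ratio of FPKM + 1 (Msmo1, chr8:64733579-64733828, minus strand), the most abundant sterol enzyme (Hmgcs1, chr13:119690101-119690350, plus strand) and a fatty acid enzyme (Fasn, chr11:120824548-120824797, minus strand). The RefSeq starts of Idi1 and Msmo1 lie inside the spans deposited for these genes, so window and span overlap in both.
Idi1: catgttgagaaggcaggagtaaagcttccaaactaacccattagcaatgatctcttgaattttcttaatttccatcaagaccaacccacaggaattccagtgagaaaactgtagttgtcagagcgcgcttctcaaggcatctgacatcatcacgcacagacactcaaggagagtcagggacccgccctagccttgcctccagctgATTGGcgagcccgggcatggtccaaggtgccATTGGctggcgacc
Mvd: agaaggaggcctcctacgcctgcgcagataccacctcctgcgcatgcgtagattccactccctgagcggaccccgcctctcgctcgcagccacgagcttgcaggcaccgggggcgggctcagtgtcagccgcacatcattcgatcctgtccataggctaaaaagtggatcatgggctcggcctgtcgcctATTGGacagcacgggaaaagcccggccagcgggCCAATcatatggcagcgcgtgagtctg
Msmo1: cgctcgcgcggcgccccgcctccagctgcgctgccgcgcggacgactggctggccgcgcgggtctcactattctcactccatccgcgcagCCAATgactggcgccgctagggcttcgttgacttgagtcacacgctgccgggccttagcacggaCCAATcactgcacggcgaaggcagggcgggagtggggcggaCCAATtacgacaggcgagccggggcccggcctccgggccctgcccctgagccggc
Hmgcs1: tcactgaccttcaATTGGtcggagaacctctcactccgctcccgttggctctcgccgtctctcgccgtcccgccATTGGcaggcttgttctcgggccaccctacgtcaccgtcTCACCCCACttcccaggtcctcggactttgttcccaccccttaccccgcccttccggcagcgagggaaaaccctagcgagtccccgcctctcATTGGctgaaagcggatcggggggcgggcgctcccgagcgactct
Fasn: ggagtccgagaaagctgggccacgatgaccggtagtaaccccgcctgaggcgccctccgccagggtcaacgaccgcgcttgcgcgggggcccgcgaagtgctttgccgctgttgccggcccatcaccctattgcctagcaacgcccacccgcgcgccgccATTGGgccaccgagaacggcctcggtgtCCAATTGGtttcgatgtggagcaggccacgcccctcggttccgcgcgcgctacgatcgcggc
Idi1, lower by 1.45 on the log2 scale, and Mvd, lower by 0.13, both held 2 CCAAT matches within 60 bases of the start. In Idi1 these began 45 and 14 bases before it, and in Mvd 60 and 27 bases. Hmgcs1 and Msmo1 held 3 each, and Fasn held 3, of which a pair read on opposite strands shares letters in a single stretch.

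**Figure D4:**
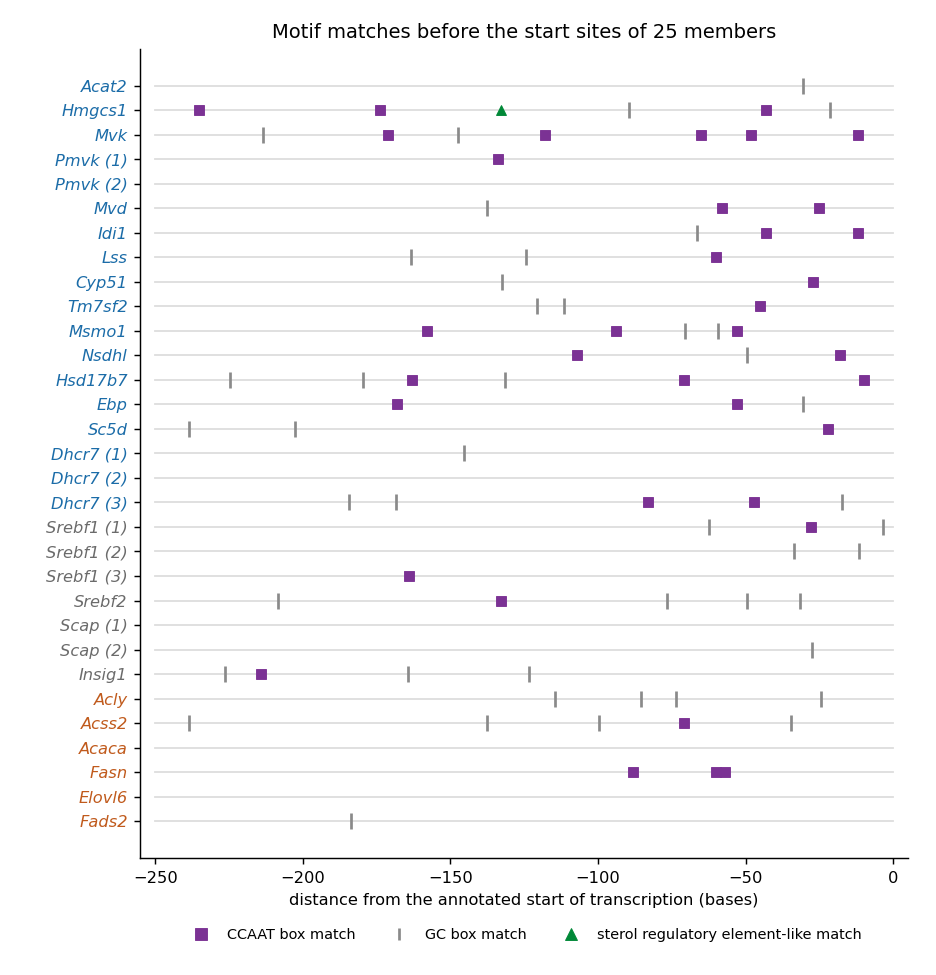
Matches to the CCAAT box (squares), GC box (ticks) and sterol regulatory element-like motif (triangle) by distance in bases from the annotated start, in the 250 bases before each start site of 25 members (a number in brackets marks one of several start sites). Squares are found on the lines of 14 of the 15 sterol enzymes and of 2 of the 6 fatty acid enzymes.

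Other genes of the pathways came from lists chosen by function. Of 13 genes that process SREBPs or act with them on promoters, 5 were higher (38.5%, against 21.9% of all genes tested) and 3 lower (23.1%, against 22.2%) by the read test. Their median log2 ratio was 0.07, and 0.03 with the length trend removed, and 1 gene was past 1.5-fold. That gene was Nfya, which encodes the DNA-contacting subunit of NF-Y, with 930 reads in CHBP- and 2218 in CHBP+ M-MDSCs, or 3.68 and 8.88 FPKM. The log2 ratio of Nfya was 1.08, and 0.85 with the length trend removed, and no listed gene overlaps it. The partner subunits had fewer reads in CHBP+ M-MDSCs, at 815 and 718 reads for Nfyb and 289 and 228 for Nfyc, of which Nfyc passed the read test (Benjamini-Hochberg adjusted p = 0.0297) and Nfyb did not (adjusted p = 0.0582). The most abundant gene of this list was Vcp, the ATPase that extracts INSIG and other proteins for degradation, at 49.3 and 43.9 FPKM.

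Of 7 genes of LXR and sterol export, 1 was higher (14.3%) and none lower by the read test, against 21.9% and 22.2% of all genes tested, with a median log2 ratio of -0.09 over the 5 kept. This was Abca1, the cholesterol efflux pump, with 1392 reads in CHBP- and 2450 in CHBP+ M-MDSCs, or 7.99 and 14.2 FPKM (log2 ratio 0.76, and 0.62 with the length trend removed). Abcg1, a second efflux pump and the most abundant gene of the list, was at 23.0 and 24.1 FPKM. The LXR genes Nr1h2 (1279 and 1169 reads) and Nr1h3 (73 and 61 reads) did not pass the read test.

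The isoprenoid branch and sterol transport list had 14 genes, of which 4 were higher (28.6%) and 2 lower (14.3%) by the read test, against the same 21.9% and 22.2%. None of the 12 kept was past 1.5-fold, and their median log2 ratio was 0.02, and -0.02 with the length trend removed. Ggps1, which draws on the same isoprenoid pool as Fdps and Idi1 to make geranylgeranyl groups, had 529 and 655 reads. Npc2, a lysosomal sterol carrier, was the most abundant gene of the list at 223 and 193 FPKM. Among 20 further genes of fatty acid elongation and activation, 3 of the 18 tested were higher (16.7%) and 9 lower (50%) by the read test, against 21.9% and 22.2% of all genes. The median log2 ratio of the 16 kept was -0.14, but -0.02 with the length trend removed. Elovl1, the elongase of very long chains, was the only one past 1.5-fold, with 1396 and 886 reads (log2 ratio -0.59, and -0.58 with the length trend removed, just short of the threshold). It shares 53 bases with Cdc20, which had 461 and 382 reads. Tecr, a reductase of the elongation cycle, was the most abundant at 79.2 and 65.5 FPKM. No read was counted on Thrsp or Elovl3, which allows up to 0.182 CPM in CHBP- and 0.184 CPM in CHBP+ M-MDSCs, the level of 3 reads.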

How the data were processed

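Single-end mRNA reads were obtained from 1 CHBP- and 1 CHBP+ M-MDSC library. Per the labels, adapters, low-quality 3′ bases, short reads and ribosomal reads were removed with Seqtk. The paper's methods name TopHat2, HT-seq and mm9, whereas the submitters' processing notes name HISAT2 2.0.4, Cufflinks 2.1.1, Cuffdiff, mm10 and GRCm38, and which made the files was not tested. Spans of 32 of 32 members overlapped the RefSeq gene on GRCm38, and 4 of 31 that on mm9. The authors deposited raw read counts per gene, and FPKM that follow from these counts, the library total and 1 length per gene (relative difference of the implied lengths between libraries at most 6.5e-05). Strand and multi-mapping rules are not given in the sources used here.

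Genes of at least 1 FPKM in either library were kept, with a pseudocount of 1 FPKM. The read test used genes of at least 10 reads. Scaling by trimmed mean of M values used edgeR 4.0.16 (R 4.3.3), and the rest Python 3.11.15, numpy 2.4.6, pandas 2.3.3, scipy 1.17.1 and matplotlib 3.10.9. No model of replicate spread was fitted, because each condition has 1 library. The read test and trend removal were tried on simulated counts with counting error only and a trend linear in log length. Without simulated spread between libraries, this cannot show how often the test would call libraries of the same condition apart. Named genes were all members, context genes past 1.5-fold and the most abundant gene of each context list, and Ly6g, Ly6c2, Lyz2, Hbb-bs, Ms4a2, Cd79a, Cd79b, Ms4a1, Nfyb, Nfyc, Nr1h2, Nr1h3, Ggps1, Pcna and the paralogs and neighbours were chosen after their values were seen. The members and lists were chosen with earlier results of these data known. The alternatives were other pseudocounts, filters, scalings and thresholds, CPM, removal of the length trend, and summing overlapping genes.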

Additional observations from a re-analysis of the deposited data

How the results depend on the processing

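Idi1 remained the 1 member past the threshold, downwards, and no member passed it upwards, with a pseudocount of 0.1, without a filter, with genes under 5 FPKM removed, after centring on the median, after scaling by trimmed mean of M values, on CPM, without the length trend and at a fold threshold of 2. The medians of the sterol enzymes (-0.15 to -0.08) and of the fatty acid genes (0.13 to 0.27) kept their signs. The median of the 5 regulators changed sign, to 0.0019 when genes under 5 FPKM were removed (fewer genes) and to 0.027 without the length trend, and that of all members went to -0.013 under the former. Without the length trend 5 members changed sign, Lss to -0.13, Sqle to -0.01, Mvd to 0.05, Sc5d to 0.05 and Insig1 to 0.03. The log2 ratio of Cyp51 reversed to 0.43 on reads summed with all those of Akap9, which were themselves higher in CHBP+ M-MDSCs. The cause was not tested beyond these settings. With a 1.5-fold difference required as well, 1 member passed the read test in place of 17, and 15 did with scaled totals. Over all genes, 374 were higher and 316 lower by 1.5-fold, against 665 and 571 with a pseudocount of 0.1, 218 and 209 above 5 FPKM, 609 and 395 on CPM, 434 and 264 after median centring and 312 and 168 without the length trend. No paired analysis was possible because each condition had a single library, which also left no replicate to leave out. Depth limits Tm7sf2 most, with 182 and 141 reads.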

Other observations

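Growing cells draw on both pathways for membrane, and 8 proliferation genes were read in the same libraries. By the read test 2 were higher (25%, against 21.9% of all genes tested) and 4 lower (50%, against 22.2%) in CHBP+ M-MDSCs, and none was past 1.5-fold on FPKM + 1. Mki67, a marker of cycling cells, had 4612 reads in the CHBP- and 6869 in the CHBP+ library, a log2 ratio of 0.58, and of 0.59 on CPM, which is past 1.5-fold. Pcna, the replication clamp, had 2312 and 1839 reads, a log2 ratio of -0.30. The list thus did not move one way, and its median log2 ratio was -0.16, and -0.17 with the length trend removed.

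Acat1, the mitochondrial thiolase related to Acat2, had 1396 and 1140 reads, a log2 ratio of -0.26, beside 279 and 281 reads for Acat2.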
